A study of Homo sapiens with 8 samples.

Results

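Chromosome 1 was examined stretch by stretch in bulk RNA-seq of 8 populations of PC9, a cell line from a human lung adenocarcinoma whose growth relies on a mutated EGFR. Its members were the 2275 rows of the count table whose name matched exactly 1 GENCODE gene symbol and lay on chromosome 1, of 22112 rows placed in this way on chromosomes 1 to 22 or X. Of these 2275 rows, 871 had no count in any library, 1606 (those 871 included) had a mean of under 10 counts, 189 had a mean of 10 to under 50, and 480 had a mean of at least 50. The last 480 rows, 249 on the short arm (1p) and 231 on the long arm (1q), were ordered by position and used to locate changes. The stretches described here were chosen by these measured values: a stretch is a place where the median of the rows was shifted in PC9-BR1 or PC9-MGH and in no other library. The shift that located a stretch is therefore a description, and it was not tested.

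The populations were 3 versions of the line and 5 sublines, each sequenced as 1 library without drug treatment. PC9-VU was kept at Vanderbilt University, and PC9-MGH was obtained separately from Massachusetts General Hospital. PC9-BR1 was raised from PC9-VU by escalating doses of afatinib, an inhibitor of EGFR, and is the only population labelled positive for the EGFR T790M mutation. DS3, DS6, DS7, DS8 and DS9 were each expanded from 1 PC9-VU cell after nuclear labelling. All 8 populations carry the deletion in exon 19 of EGFR. PC9-MGH was thus compared with PC9-VU and 6 populations derived from it, so a change on the PC9-MGH side and one on the PC9-VU side cannot be told apart. With 1 library per population there was no replicate error and no p-value. Intervals below cover the spread over rows or counting error only, and rows are not replicates of a population.

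Many tumour lines carry extra or missing copies of whole chromosome arms or of parts of them, and the RNA of genes in such a part often moves in the same direction. A shift over part of an arm is hard to see in the median of a whole chromosome, because the unshifted part, or a shift of the opposite sign, sets that median. RNA from neighbouring genes can also move together through shared regulation. DNA was not analysed here, so these possibilities cannot be told apart. In bulk RNA, a change in a few cells and a smaller change in every cell cannot be told apart either.

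Named rows summed to between 2717355 counts in PC9-BR1 and 3497722 counts in PC9-VU. Counts were expressed as log2 CPM (counts relative to the library size, scaled by TMM factors), and for each row the difference of a library from the median of the other 7 libraries was taken. Over all 4529 placed rows that reached a mean of 50 counts, the median difference lay between -0.01 and 0.01 in every library. Row names served as position labels and no gene was read from them, because the counts of chromosome 1 rows lay beside the genes named. When the exons of the named genes were moved in steps of 200 bases, the best match to the counts was found 22.6 to 540.2 kb away in 9 of 12 blocks of 20 Mb. In the other 3 blocks, 80 to 100 Mb, 200 to 220 Mb and past 240 Mb, 2 measures of the match gave different distances, which past 240 Mb were 1443 and 1868 kb. Edges of stretches are given in hg38 as the named genes lie, and are no more precise than these distances, settled or not.

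The median over all of chromosome 1 showed little in any library. It was -0.00 on the log2 scale in PC9-MGH, 0.06 in PC9-BR1, -0.02 in PC9-VU, and between -0.03 and 0.01 in the 5 sublines. The quartiles of PC9-MGH were the widest of the 8, at -0.33 and 0.32. In PC9-MGH, 32 of the 480 rows were at least 2-fold higher and 18 at least 2-fold lower than the median of the others, against 5 and 6 rows in PC9-BR1. The share of such rows over all chromosomes was not taken, so nothing particular to chromosome 1 is read from these counts. Over all 4529 rows, PC9-MGH was highest of the 8 libraries in 25.9% and lowest in 25.2%. The near-zero median in PC9-MGH covered differences of rows in both directions, as this library had on all chromosomes.

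The arms differed in which libraries stood off zero. On 1p the median was 0.14 in PC9-BR1 (95% rank interval 0.09 to 0.19), where 173 of 249 rows lay above 0. It was 0.09 in PC9-MGH (-0.00 to 0.19) and -0.11 in DS8 (-0.16 to -0.04). The other 5 libraries lay between -0.05 and 0.02 on 1p. On 1q the median was -0.07 in PC9-MGH (-0.13 to -0.00) and 0.02 in PC9-BR1 (-0.03 to 0.04), and the other 6 libraries lay between -0.04 and 0.04.

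To place these shifts, each arm was cut into windows of 25 rows, 10 on 1p and 9 on 1q, and a window was called where its median was at least 0.32 log2 units from 0. PC9-BR1 had 3 of 19 windows called higher, where 7.22% of the 180 windows of all chromosomes were, and 0 called lower, where 8.89% were. PC9-MGH had 2 of 19 windows called higher, against 14.4% of all windows, and 3 called lower, against 15% of all windows. The share called on chromosome 1 was therefore near the share elsewhere in PC9-MGH, and the windows of PC9-BR1 were higher only. In the other 6 libraries no window of chromosome 1 was called, although 68 of their 1080 window values over all chromosomes were.

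**Figure D1:**
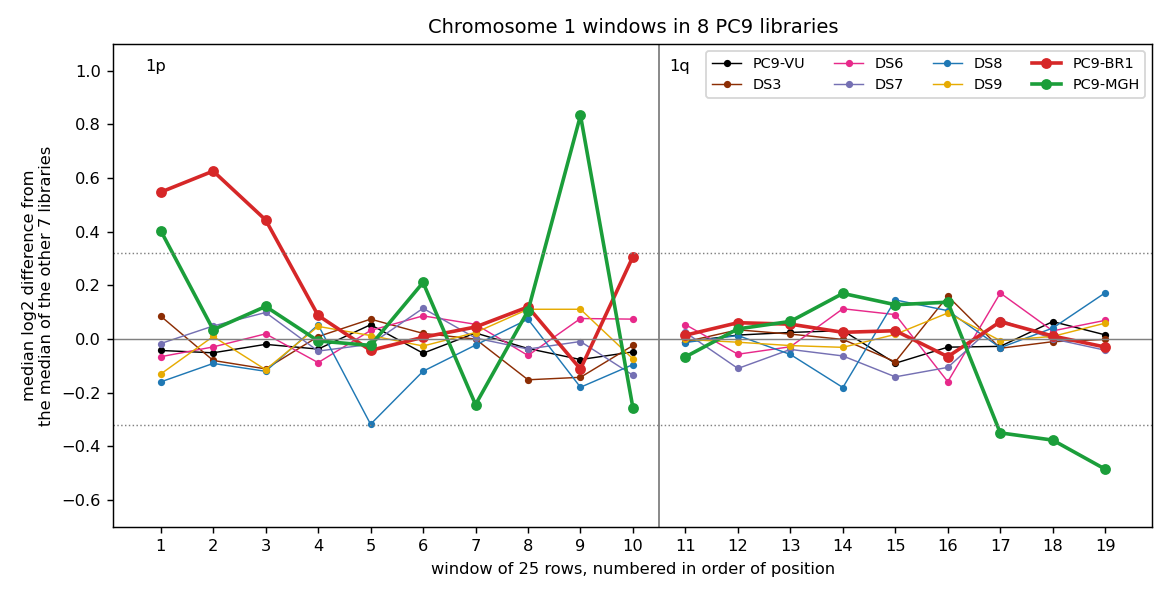
Median log2 difference of each window of chromosome 1 from the median of the other 7 libraries, for 8 libraries with 1 line each. Windows are numbered in order of position, the vertical line parts 1p from 1q, and dotted lines mark 0.32 log2 units on either side of 0. PC9-BR1 lies above the upper dotted line in windows 1 to 3 of 1p, and PC9-MGH lies above it in windows 1 and 9 of 1p and below the lower one in the last 3 windows of 1q.

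Near the end of 1p, PC9-BR1 was higher over 2 neighbouring windows in which no other library was past 0.32. The stretch of windows 2 and 3 ran from the row GNB1 to the row PADI2 (chr1:1785285-17119451, 15.3 Mb) and held 50 rows. Its rows summed to 7761 CPM in PC9-BR1. The same rows summed to 5364 CPM in PC9-VU, 5482 in PC9-MGH, 5330 in DS3, 5492 in DS6, 5700 in DS7, 5418 in DS8 and 5546 in DS9. PC9-BR1 was thus above all others, which spanned 5330 to 5700 CPM. The median difference of PC9-BR1 was 0.52 on the log2 scale (0.37 to 0.66), or 1.44-fold, with 44 rows above 0 and 6 below. The other 7 libraries had medians from -0.11 in DS8 to 0.08 in PC9-MGH. PC9-MGH was raised in the first part of the stretch, however, with a median of 0.53 over the 9 rows from GNB1 to NPHP4 (1.79 to 5.99 Mb), and it was highest of the 8 libraries in 13 of the 50 rows. The row with the most counts held 27.5% of the counts of the stretch, so the sums lean on it. Set against each library by itself, PC9-BR1 was 1.36-fold to 1.47-fold higher by the median of the rows. It was 1.43-fold higher than PC9-VU, its parent population. The shift did not run over the whole arm, since the other 199 rows of 1p, the first window included, had a median of 0.09 in PC9-BR1.

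PC9-BR1 had the highest value of the 8 libraries in 29 of the 50 rows, where 12.3% of all 4529 rows were highest in PC9-BR1. These rows located the stretch, so nothing is read from that count. The 24 rows of the same span with a mean of 10 to under 50 counts did not locate it. Their median in PC9-BR1 was 0.21 (-0.18 to 0.65), with 15 of 24 above 0, and 8 of 24 were highest in PC9-BR1, against 11.2% of the 1818 such rows on all chromosomes. The direction was the same as in the rows with more counts, but the interval included 0. DS8 was about as far from 0 in these 24 rows, at -0.23 (-0.66 to -0.02), with 18 below 0. Over all chromosomes such rows had a median of 0.03 in DS8 and 0.02 in PC9-BR1, with 51.8% and 50.8% above 0. By their medians, the lower-count rows of this span therefore did not set PC9-BR1 apart.

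The inner edge of the shift was then placed without fixed windows. When 1p was split into levels by least absolute deviations, PC9-BR1 had a level of 0.57 (0.49 to 0.65) over 65 rows from LINC01409 to VPS13D (0.78 to 12.5 Mb) and one of 0.04 (0.01 to 0.09) over the remaining 184 rows, which began with KAZN at 13.9 Mb. In the first level, 61 of 65 rows lay above 0, and the rows summed to 13399 CPM in PC9-BR1 against 8423 CPM in DS8 to 10533 CPM in PC9-MGH, the ends of the range of the other 7. The lower-count rows, split by themselves, gave nearly the same place. Their first level held 26 rows from PLEKHN1 to TNFRSF1B (0.97 to 12.2 Mb) at 0.55 (0.25 to 0.71), and their second held 78 rows at -0.07 (-0.20 to 0.09). In those 26 rows, 23 lay above 0 in PC9-BR1 and 13 were highest there, against 50.8% and 11.2% of such rows on all chromosomes. Here and below, the split always returns a step and chooses the rows of a level by their values in the library. Levels and their counts of rows are therefore descriptions, and nothing is read from the counts. A running median of 25 rows was past 0.32 from its first position on 1p, centred on AURKAIP1 at 1.37 Mb. It stayed so up to PLOD1 at 11.9 Mb and reached 0.65, which gives an inner edge only. By the levels and by the running median, the shift ended some megabases before the edge that the fixed windows gave. The lower-count rows placed this edge without having been used for the windows, but they came from the same libraries.

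The first window of 1p, between the stretch and the end of the arm, was called in PC9-MGH as well as in PC9-BR1. Its 25 rows ran from LINC01409 to CDK11A (chr1:778747-1724357) and summed to 6773 CPM in PC9-BR1, 6354 in PC9-MGH, 4603 in PC9-VU, 5259 in DS3, 4475 in DS6, 4519 in DS7, 4136 in DS8 and 4614 in DS9. PC9-BR1 and PC9-MGH were above the other 6, whose highest was DS3. The median difference was 0.55 in PC9-BR1 (0.41 to 0.63) with 23 of 25 rows above 0, and 0.40 in PC9-MGH (0.20 to 0.59) with 20 of 25. Compared directly, PC9-BR1 was 0.04 above PC9-MGH in the median of these rows. In 8 lower-count rows of the span, PC9-BR1 was above 0 in 8 of 8, with a median of 0.61 (0.13 to 1.24), whereas PC9-MGH had a median of 0.05 (-0.65 to 1.33). Over all chromosomes, 50.8% of such rows lay above 0 in PC9-BR1. The rise at the very end of the arm was thus seen in both row classes in PC9-BR1 and in the higher-count rows in PC9-MGH. The higher-count rows are those by which the window was called, and the lower-count rows were only 8. The row with the most counts held 17.5% of the counts of the window, so its sums lean on that row.

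**Figure D2:**
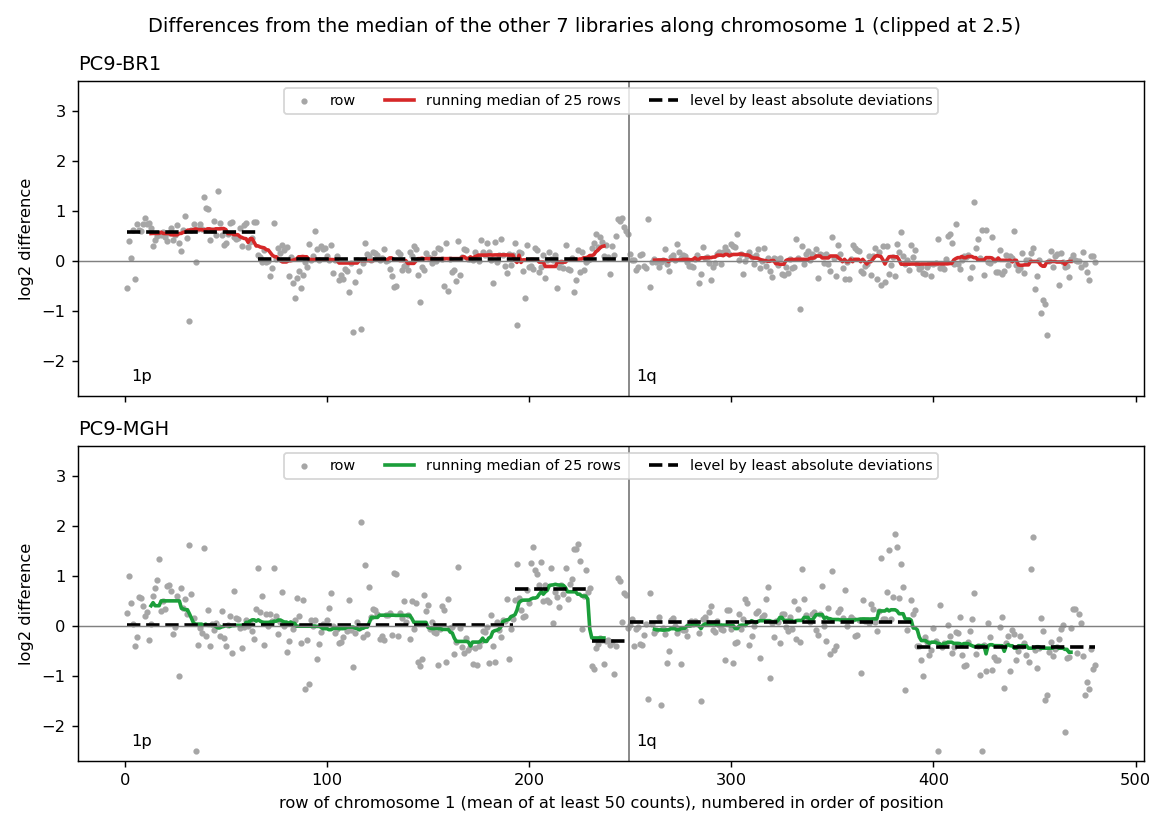
Log2 difference from the median of the other 7 libraries for the 480 rows of chromosome 1 in order of position, in PC9-BR1 (top) and PC9-MGH (bottom), with values past 2.5 on either side drawn at 2.5. Points are rows, the coloured line is the running median of 25 rows, and dashed lines are levels found by least absolute deviations. PC9-BR1 steps from 0.57 to 0.04 once along 1p, and PC9-MGH has a raised level of 0.74 late on 1p and a lowered one of -0.41 over the last part of 1q.

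The largest shift among the 19 windows in any of the 8 libraries was that of PC9-MGH in window 9 of 1p. This single window ran from the row SELENOF to the row GSTM1 (chr1:86862445-109709551, 22.8 Mb) and held 25 rows. They summed to 3886 CPM in PC9-MGH, 2134 in PC9-VU, 2107 in PC9-BR1, 2109 in DS3, 2408 in DS6, 2480 in DS7, 2133 in DS8 and 2324 in DS9. PC9-MGH stood above the whole range of the others, which spanned 2107 to 2480 CPM. The median difference in PC9-MGH was 0.83 (0.64 to 1.17), or 1.78-fold, and 25 of 25 rows lay above 0. The others lay between -0.18 in DS8 and 0.11 in DS9. Of the 25 rows, 11 were at least 2-fold higher in PC9-MGH, a count without a share over all chromosomes beside it. Against single libraries, the median ran from 1.70-fold against DS7 to 2.14-fold against DS3.

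PC9-MGH was highest of the 8 in 24 of these 25 locating rows, where 25.9% of all rows were, and nothing is read from that count. Among the 12 lower-count rows of the span, the median in PC9-MGH was 0.59 (-0.19 to 1.46), 8 lay above 0, and 6 were highest in PC9-MGH, against 19.2% of such rows on all chromosomes. Over all chromosomes, 44.3% of such rows lay above 0 in PC9-MGH. Again the direction was shared and the interval included 0. The row with the most counts held 33.5% of the counts of the window, so the sums of CPM lean on it, whereas the medians do not.

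The edges of this shift were less certain than those on distal 1p. The running median was past 0.32 from PIGK at 77.1 Mb to CD53 at 110.9 Mb. The split into levels set the raised part at 38 rows from GADD45A to CEPT1 (67.7 to 111.2 Mb), with a level of 0.74 (0.56 to 1.03) and 37 of 38 rows above 0. The lower-count rows split 1p of PC9-MGH elsewhere, at 22.6 and 31.2 Mb, and so gave no edge here. Beyond the raised part, 19 rows from ST7L to FAM72B (112.5 to 121.2 Mb) had a median of -0.30 in PC9-MGH (-0.44 to 0.07), with 14 rows below 0. They were not evenly lowered, since the last 8 of them, from IGSF3 at 116.57 Mb on, had a median of 0.35 in PC9-MGH. In the same 19 rows PC9-BR1 had a median of 0.38 (0.26 to 0.59), with 18 above 0. These rows next to the centromere made up most of window 10, whose median was 0.31 in PC9-BR1, just short of the 0.32 needed for a call, and -0.26 in PC9-MGH.

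Over the end of 1q, PC9-MGH alone was lower. Windows 7 to 9 ran from the row TNNI1 to the row LYPD9P (chr1:201403784-248716755, 47.3 Mb) and held 81 rows. They summed to 6566 CPM in PC9-MGH, 8813 in PC9-VU, 9035 in PC9-BR1, 8756 in DS3, 9644 in DS6, 8839 in DS7, 9529 in DS8 and 8959 in DS9. PC9-MGH was below all others, the lowest of which was DS3. The median difference in PC9-MGH was -0.41 (-0.53 to -0.32), or 0.751 times the median of the others, and 66 of 81 rows lay below 0. The other 7 libraries lay between -0.01 in DS3 and 0.10 in DS6. Against single libraries, PC9-MGH was at 0.729 times the level of PC9-BR1 and 0.760 times that of PC9-VU and of DS9, the ends of the range. The other 150 rows of 1q had a median of 0.06 in PC9-MGH. When every row of the span with at least 1 count was used, the median in PC9-MGH was -0.02. The medians of the 3 windows were -0.35, -0.38 and -0.49 in order of position.

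PC9-MGH was lowest of the 8 in 50 of these 81 locating rows, where 25.2% of all rows were, and nothing is read from that count. The 34 lower-count rows of the span had a median of -0.42 in PC9-MGH (-0.97 to -0.03), 24 of them lay below 0, and 15 were lowest in PC9-MGH, against 26.6% of such rows on all chromosomes. These rows had a median of -0.11 in PC9-MGH over all chromosomes, so a part of their shift was not particular to 1q. Their value on 1q was nearly that of the rows that located the stretch.

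The split into levels set the start of the lowered part earlier, at 89 rows from B3GALT2 to LYPD9P (193.2 to 248.7 Mb), with a median of -0.41 (-0.53 to -0.33), after 142 rows at 0.09 (0.01 to 0.13). The running median was past -0.32 from DDX59 at 200.6 Mb. The lower-count rows placed the step much earlier, with 70 rows from SHE at 154.5 Mb to the end of the arm at -0.50 (-0.65 to -0.12). The start of this stretch was therefore not settled by these counts. The last 6 rows of the arm, DESI2 to LYPD9P (244.7 to 248.7 Mb), had a median of -0.99 in PC9-MGH, with 6 of 6 below 0. In DS3 they had a median of -0.29, also with 6 of 6 below 0, and in DS8 one of 0.23, with 0 below. This is in the part of the chromosome where the distance between rows and named genes was not settled.

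**Figure D3:**
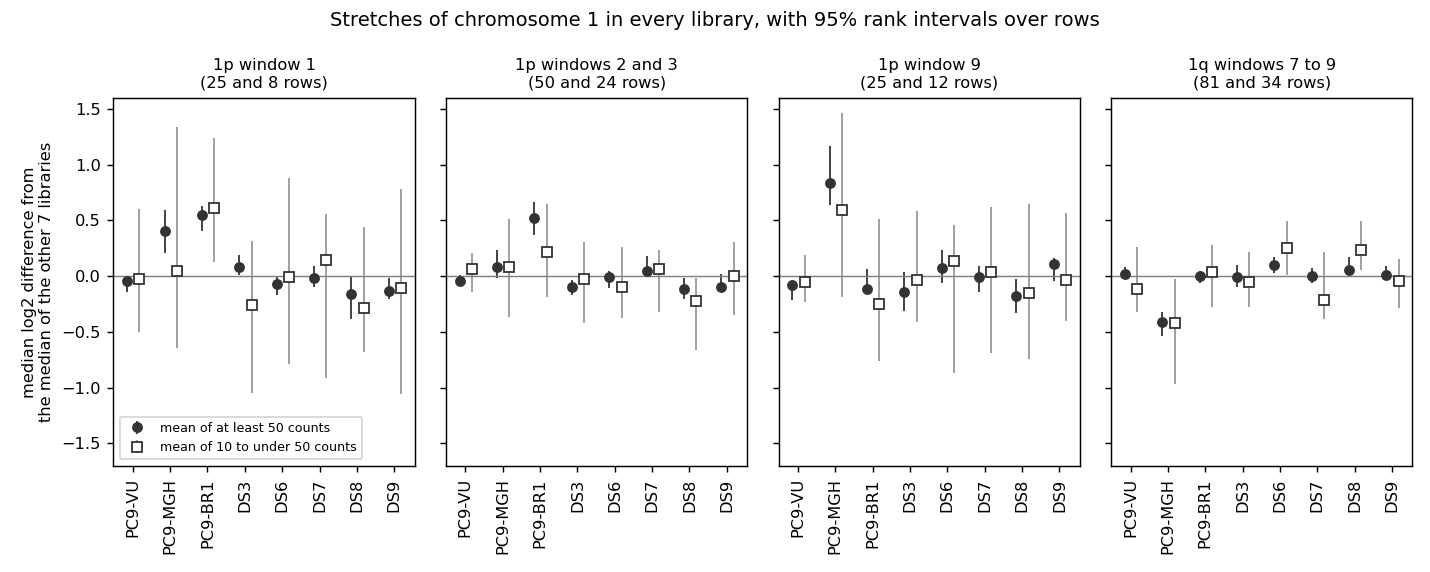
Median log2 difference from the median of the other 7 libraries in every library, for the first window of 1p, the PC9-BR1 stretch on 1p, the PC9-MGH window on 1p and the PC9-MGH stretch on 1q. Filled circles are rows averaging 50 or more counts, open squares are rows averaging 10 to under 50 counts that did not locate the stretch, and bars are 95% rank intervals over rows. In the 3 places shifted in 1 library, the filled circle of that library (0.52, 0.83 and -0.41) lies apart from the other 7. The places were chosen by these filled circles. The open square has the same sign, but its bar includes 0 in the PC9-BR1 stretch and in the PC9-MGH window on 1p.

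The values just inside and just outside the limit of 0.32 were close to each other. Inside were windows 7 and 8 of 1q in PC9-MGH, at -0.35 and -0.38. Outside were window 5 of 1p in DS8 at -0.318, window 10 of 1p in PC9-BR1 at 0.31, and windows 7 and 10 of 1p in PC9-MGH at -0.24 and -0.26.

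The stretches differed in base composition and in how densely genes lie. GC content averaged 57.8% around the rows of the first window of 1p, which holds 44.4 protein-coding genes per Mb in GENCODE. In the PC9-BR1 stretch it was 50.9% with 12.0 genes per Mb, in the PC9-MGH window on 1p 41.8% with 5.34 genes per Mb, and in the PC9-MGH stretch on 1q 45.3% with 7.69 genes per Mb. Over the 19 windows of chromosome 1, the correlation between GC content and the window median was 0.69 in PC9-BR1 and 0.12 in PC9-MGH, and in DS9 it was -0.63. Over all 180 windows it was -0.01 in PC9-BR1 and 0.02 in PC9-MGH. Windows of a library share its depth and its scaling, so these correlations are descriptions. GC content moved with the PC9-BR1 values on chromosome 1. With a lowess correction for GC content within 250000 bases, fitted over all chromosomes, the PC9-BR1 stretch was at 0.52, the PC9-MGH window on 1p at 0.87 and the PC9-MGH stretch on 1q at -0.37. With a correction within 3 Mb, chosen after seeing the data, they were at 0.55, 0.85 and -0.36, and windows 7, 8 and 9 of 1q were at -0.29, -0.319 and -0.43 in PC9-MGH, so that window 9 alone was still called. With the correction within 250000 bases, the first window of 1p was at 0.49 in PC9-BR1 and at 0.29 in PC9-MGH, so that PC9-MGH was no longer past 0.32 there.

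The unevenness of chromosome 1 was set beside that of other chromosomes. The medians of its windows spanned 1.32 log2 units in PC9-MGH, rank 3 among 20 chromosomes with at least 3 windows, and 0.74 in PC9-BR1, rank 4. Chromosome 1 also has the most windows, which widens a range. By the standard deviation of the windows it had rank 10 in PC9-MGH and rank 8 in PC9-BR1. In PC9-VU its windows spanned 0.16 log2 units, and in the sublines between 0.24 in DS9 and 0.49 in DS8.

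By position alone, genes known in growth control and cancer lie in each of these stretches, and no level is given for any of them. The PC9-BR1 stretch spans ERRFI1 (chr1:8004404-8026309), whose product is a feedback inhibitor of EGFR, MTOR (chr1:11106535-11262556), a kinase that drives cell growth, and TP73 (chr1:3652516-3736201), a relative of p53. The PC9-MGH window on 1p spans CDC7 (chr1:91500851-91525764), a kinase that starts DNA replication, and F3 (chr1:94529173-94541759), the tissue factor of blood clotting. The PC9-MGH stretch on 1q spans MDM4 (chr1:204516379-204558120), an inhibitor of p53. ARID1A, JUN, JAK1, NRAS, NOTCH2 and MCL1 lie on chromosome 1 outside the stretches. These genes were listed after the stretches were known, and the list says nothing about which genes changed.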

How the data were processed

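One RNA-seq library from each of 8 PC9 populations was analysed (polyA RNA, depleted of ribosomal RNA). For the deposited table the authors used STAR (2.5.2b) to align paired-end reads to hg38, counted them per row with featureCounts (1.6.4), and deposited raw counts without normalization. Strandedness is not given in the sources used here. The table has 30988 rows. The 8324 rows without a symbol, with 4.23% to 4.41% of the counts, were left out. Of 22664 named rows, 22214 matched 1 symbol of GENCODE release 44.

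From the deposited counts, log2 CPM values were computed with edgeR (4.0.16, R 4.3.3), TMM factors and a prior count of 2. Windows of 25 rows were made in Python (3.11.15) within the arms, which were parted at the longest run of N in hg38 (18.0 Mb), and a last window of under 13 rows was joined to the one before. Medians carry binomial 95% rank intervals. The scripts were run on simulated counts with a known shift. Alternatives covered scaling (including DESeq2 1.42.0 size factors), filters, window size, threshold, GC correction, and leaving out each library. By rule, row names printed are the first and last row of a stretch or called window; those of levels and runs, and genes listed by position, were added after values were seen. A few items are not reported here. Members and lists were chosen with earlier results of these data known.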

Additional observations from a re-analysis of the deposited data

Results flagged for a closer look

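Window 5 of 1p (rows MACO1 to KPNA6, 25.4 to 32.2 Mb) was lower in DS8 than in the other 4 sublines. Its median was -0.318 on the log2 scale in DS8 and between -0.02 and 0.07 in the others, and the gap from DS8 to the nearest subline was 0.761 of the range of the 5, above the limit of 0.71. Chance singles out about 1 in 20 such groups, and 22 values were examined, so 1.1 would be singled out by chance and 1 was. In DS8, 19 of the 25 rows lay below 0. With 1 library of DS8 this value has no replicate check.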

How the results depend on the processing

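No stretch median changed sign under any alternative. The whole-chromosome median of PC9-MGH, -0.000263, was above 0 under 11 alternatives, the highest of which, with summed counts, gave 0.032, and the other arm and chromosome medians of PC9-BR1 and PC9-MGH kept their sign or fell to 0.00. Of the values that answer a comparison, 61 of 66 arm and chromosome medians, 58 of 65 stretch medians and 47 of 64 window counts stayed within their limits. For medians the limit was the rank interval of the first value, and for window counts a fixed ratio to the first count. With all rows of at least 1 count, the PC9-BR1 median was 0.029 on 1p and 0.017 on the whole chromosome, the PC9-MGH median was 0.00 on 1q, and the stretch medians were 0.36 (PC9-BR1 1p), 0.63 (PC9-MGH 1p) and -0.023 (PC9-MGH 1q). With rows of 10 to under 50 counts alone, the stretches of PC9-BR1 and PC9-MGH on 1p were 0.21 and 0.59, and the first window of 1p in PC9-MGH was 0.048. That window was 0.10 in PC9-MGH over the edges from running windows, which take in more of 1p. Total counts without factors gave PC9-BR1 0.051 on 1q and 0.10 on the whole chromosome. The cause of these shifts was not tested.

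Chromosome 1 has 19 windows, but 10 of 50 rows, 32 of 15 rows, 27 with rows of at least 10 counts, 56 with rows of at least 1 count and 18 when begun 12 rows later. Windows called higher in PC9-BR1 (3) became 1 with windows of 50 rows and at 1.5-fold, 5 with windows of 15 rows and with rows of at least 10 counts, and 7 with rows of at least 1 count. The share called was 15.8% at first, 10.0% with windows of 50 rows, 15.6% with windows of 15 rows, and 18.5% and 12.5% with minimums of 10 counts and 1 count. Those called higher in PC9-MGH (2) became 1 at 1.5-fold, with windows of 50 rows and with GC correction over 250000 bases, 4 with windows of 15 rows and rows of at least 10 counts, and 7 with rows of at least 1 count, where 12.5%, 14.8% and 12.5% of the windows were called against 10.5%. Those called lower in PC9-MGH (3) became 0 at 1.5-fold, 1 with GC correction over 3 Mb, 5 with rows of at least 10 counts, at a limit of 0.20 log2 units and with windows begun 12 rows later, and 6 with windows of 15 rows. Their share was 15.8% at first, 18.5% with rows of at least 10 counts, 27.8% with windows begun later and 18.8% with windows of 15 rows.

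Leaving each other library out of the reference gave, in PC9-BR1, 0.11 to 0.15 on 1p, 0.01 to 0.03 on 1q, 0.06 to 0.07 on chromosome 1, 0.50 to 0.57 in its stretch, 0.52 to 0.57 in the first window and 3 to 4 windows higher. In PC9-MGH it gave 0.09 to 0.12 on 1p, -0.08 to -0.07 on 1q, -0.00 to 0.01 on chromosome 1, 0.82 to 0.88 and -0.44 to -0.42 in its stretches and 0.39 to 0.42 in the first window, with 2 higher and 3 lower windows each time. No paired analysis was possible because each population has 1 library. GC correction over 3 Mb, the split into levels and windows of 7 rows were chosen after seeing the data. With a mean of under 10 counts, 1606 rows of chromosome 1 were too shallow to place a change, and 871 of these had no count in any library. Why their counts were low was not tested.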

Other observations

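Shorter groups of rows were searched with running windows of 7 rows and a limit of 0.5 log2 units, a search chosen after seeing the data. PC9-VU, DS7 and DS9 had 0 such runs on chromosome 1, DS3 and DS6 had 1 each, DS8 had 2, PC9-BR1 had 7 and PC9-MGH had 14. Runs that overlap were counted separately, so these are not numbers of distinct places. Most of those of PC9-BR1 lay in its raised part of distal 1p. Other chromosomes were not searched in this way, so the counts have no background. Outside the stretches of the report, 16 rows from QSOX1 to UCHL5 (180.2 to 193.1 Mb) had a median of 0.58 in PC9-MGH, and the 7-row median reached 1.23 there.

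On 1q, 4 neighbouring rows, ARF1 to IBA57 (chr1:228082708-228182257), varied together over the libraries and were singled out after their values were seen. They summed to 261 CPM in DS6, 189 in DS3, 151 in PC9-VU, 94.99 in DS9, 82.4 in DS8, 71.6 in PC9-MGH, 58.3 in DS7 and 47.9 in PC9-BR1. All 4 rows were above the median of the other libraries in DS6, DS3 and PC9-VU, and 0 of 4 were in DS7 and PC9-BR1. The sublines DS6 and DS7 were thus farther apart here than PC9-BR1 and PC9-MGH. These rows lie inside the lowered 1q stretch of PC9-MGH and in a block where counts lay 188.2 kb from the genes named, so the transcripts counted are not known.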
